A study of Mus musculus with 4 samples.

Results

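The seed family of miR-15, miR-16 and miR-195 was followed in primary cultures of mouse cortical neurons over 4 harvest days. The family was taken as the probes whose array name held exactly 1 of the mouse names mmu-miR-15a, mmu-miR-15b, mmu-miR-16, mmu-miR-195, mmu-miR-322 and mmu-miR-497, which are guide strands and are written below without the species prefix. All 6 names had 1 probe each, out of 1030 mouse miRNA probes, and 5 of them were detected, out of 419 (40.7%) mouse miRNAs detected on the array. The neurons came from E15 Swiss Albino embryos, grew without any treatment in Neurobasal with B27 on poly-d-lysine, and differed between groups in the day of harvest alone. For each of Days 2, 4, 6 and 8, RNA of several experiments was combined into 1 pool, which carried Hy3 as its only dye and went on 1 LNA array, so that each of the 4 groups had n = 1 array, on a slide of its own. Slide, pool and day therefore cannot be told apart, and each ± is the SD over the 4 replicate spots of a probe on an array, which holds technical error and not the spread between cultures.

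MicroRNAs of this family pair with target mRNAs mainly through the seed, bases 2 to 8 counted from the 5′ end, and lower the translation or stability of those targets. Members with 1 seed are therefore grouped together although they are made from separate loci. The family is known for restraining the cell cycle, with cyclins among its targets, and for targeting the survival factor Bcl2. miR-15a and miR-16 are lost in many chronic lymphocytic leukaemias, and miR-195 rises in the heart after birth, when cardiomyocytes leave the cell cycle.

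The mature sequences are shown because the results turn on members that share the seed and differ downstream of it. All 6 were found in the RefSeq miRNA table of build GRCm38.p6, where miR-195 is listed as miR-195a and miR-497 as miR-497a. The seed is in capitals.
miR-15a: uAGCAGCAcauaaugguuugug
miR-15b: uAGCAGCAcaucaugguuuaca
miR-16: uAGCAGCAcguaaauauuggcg
miR-195: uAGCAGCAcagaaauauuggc
miR-497: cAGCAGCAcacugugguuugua
miR-322: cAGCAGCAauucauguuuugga

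There was 1 seed among the 6 members. Aligned from the 5′ end without gaps, miR-16 and miR-195 were the closest pair, with 2 mismatches in 21 bases, followed by miR-15a and miR-15b with 4 mismatches in 22. miR-15b and miR-16, of which 1 copy lies beside miR-15b, had 8 mismatches in 22, and miR-195 and miR-497, also neighbours in the genome, had 9 in 21. Cross-hybridisation between such near copies was not tested. In the same table the seed was carried by 4 further mature miRNAs, miR-195b, miR-6342, miR-6353 and miR-6419, which were not analysed here.

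The 6 members are encoded at 7 loci in 4 clusters (GRCm38.p6). miR-15a (chr14:61632075-61632096, minus strand) and 1 copy of miR-16 (chr14:61631936-61631957, minus strand) lie 117 bases apart inside the span of Dleu2, a long non-coding RNA gene. miR-15b (chr3:69009775-69009796, plus strand) and the other copy of miR-16 (chr3:69009918-69009939, plus strand) lie 121 bases apart inside the span of Smc4, which encodes a condensin subunit used in mitosis. miR-497 (chr11:70234730-70234751, plus strand) and miR-195 (chr11:70235062-70235082, plus strand) lie 310 bases apart on chromosome 11. miR-322 (chrX:53054306-53054327, minus strand) lies 256 bases from miR-503, inside the span of the long non-coding RNA gene C430049B03Rik. Whether these loci are exonic or intronic was not read here. Both copies of miR-16 give the same mature sequence, so the miR-16 probe cannot be assigned to either cluster.

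miR-15a, miR-15b and miR-16 fell with the day of culture by a linear trend test. That call was kept by 10, 12 and 10 of 13 other processing settings, in this order. miR-195 rose, a call that 7 of 13 other processing settings kept, miR-322 did not pass the test, and miR-497 was not detected on any day. On Day 8, the SLR (signal log ratio, the log2 difference in normalised intensity from Day 2) was -1.20 for miR-15b, -1.08 for miR-15a and -0.79 for miR-16, against 0.52 for miR-195. The SLRs of Days 4, 6 and 8 share the single Day 2 array. On that array 1 spot of each detected member had a local background of 404 to 451, against 73 to 146 at its other spots. With the median of spots in place of their mean, the Day 8 SLRs were -1.20 for miR-15b, -1.03 for miR-15a, -0.82 for miR-16 and 0.49 for miR-195. Less of a miRNA per cell and fewer cells that make it cannot be told apart in such RNA.

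miR-15b, of the cluster in Smc4, gave background-subtracted intensities of 3174 ± 103, 2485 ± 78, 1447 ± 37 and 1409 ± 50 on Days 2, 4, 6 and 8. Day 2 was highest, and no spot of a later day reached the lowest spot of Day 2, at 3086. After normalisation, Day 4 had an SLR of -0.46 ± 0.07 and Day 6 one of -0.70 ± 0.05, while Day 8, at -1.20 ± 0.05, was 2.30-fold lower than Day 2. The normalised spots of each day were also clear of those of the harvest before it, with steps of -0.46, -0.24 and -0.50 on the log2 scale. The last step depended on the normalisation. Without it the SLR was -1.17 on Day 6 and -1.20 on Day 8, and under spike-in controls -1.14 and -1.06. The intensities of Days 6 and 8 were close to each other before normalisation, when the Day 6 array was the dimmest of the 4.

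miR-15a, of the cluster in Dleu2, gave intensities of 10419 ± 1029, 8974 ± 98, 4965 ± 180 and 5495 ± 172 on Days 2, 4, 6 and 8. Its Day 2 spots were the most scattered, and they lay above those of every later day. The brightest Day 2 spot, at 11917, had a local background of 414, against 81 to 87 at the others. The SLR was -0.34 ± 0.15, -0.60 ± 0.16 and -1.08 ± 0.15 on Days 4, 6 and 8, and the level on Day 8 was 2.11-fold lower than on Day 2. The order of Days 6 and 8 depended on the normalisation. Without it the SLR was -1.08 on Day 6 and -0.93 on Day 8, and under spike-in controls -1.05 and -0.79. The SLRs of miR-15a and miR-15b, made from separate chromosomes, differed by 0.12 ± 0.16, 0.10 ± 0.17 and 0.12 ± 0.16 on the 3 days (miR-15a minus miR-15b), less than the SD over spots. This closeness depended on the normalisation. Under median scaling the Day 8 SLRs were -0.80 for miR-15a, -1.07 for miR-15b and -0.74 for miR-16, so that miR-15a lay nearer to miR-16.

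miR-16, the partner in both clusters, gave intensities of 27287 ± 1726, 25659 ± 888, 14463 ± 399 and 14909 ± 468 on Days 2, 4, 6 and 8. No spot of it was saturated. The normalised spots of Day 4 overlapped those of Day 2 (SLR -0.18 ± 0.22), whereas those of Day 6 (-0.40 ± 0.22) and Day 8 (-0.79 ± 0.21, 1.73-fold lower) did not. Without normalisation the SLR was -0.92 on Day 6 and -0.88 on Day 8, and under spike-in controls -0.89 and -0.73. On Day 8 the gap in SLR was -0.41 ± 0.22 for miR-15b minus miR-16 and -0.28 ± 0.26 for miR-15a minus miR-16.

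miR-195 gave intensities of 712 ± 63, 917 ± 30, 782 ± 41 and 1178 ± 73 on Days 2, 4, 6 and 8. All 4 days were above the detection threshold of 300, and Day 8 was highest. The lowest Day 2 spot, at 617, had a local background of 404, against 75 to 86 at the others. The SLR reached 0.18 ± 0.12 by Day 4 and 0.44 ± 0.13 by Day 6, and at 0.52 ± 0.15 Day 8 was 1.43-fold higher than Day 2, with spots that did not overlap those of Day 2 on any of these days. Days 6 and 8 overlapped each other. The direction on Day 8 held under all 13 other processing settings, but on Day 6 the difference was -0.19 without normalisation and -0.16 under spike-in controls, and on Day 4 it was -0.20 under spike-in controls.

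miR-497, 310 bases from miR-195, gave intensities of 50.1 ± 10.9, 55.1 ± 24.2, 40.4 ± 12.2 and 93.3 ± 11.4 on Days 2, 4, 6 and 8. None reached 300, and each day's value was under the brightest negative control probe of its array (139, 123, 93.9 and 117). No fold is given, and whether miR-497 moved with miR-195 could not be measured at this signal.

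miR-322 gave intensities of 315 ± 73, 340 ± 50, 213 ± 26 and 360 ± 27 on Days 2, 4, 6 and 8, near the threshold and below it on Day 6. Its Day 2 spots ran between 231 and 399, and the normalised spots of all later days overlapped them. The lowest Day 2 spot had a local background of 451, against 99 to 146 at the others. The SLR was -0.08 ± 0.27, -0.15 ± 0.26 and 0.06 ± 0.24 on Days 4, 6 and 8, and on Day 8 its sign turned without normalisation (-0.40), without background correction (-0.19), under median scaling (-0.26) and under spike-in controls (-0.26). A probe named for human miR-424, the counterpart of miR-322, gave 656 ± 79, 621 ± 83, 445 ± 19 and 649 ± 56, with SLRs of -0.23 ± 0.22, -0.11 ± 0.15 and -0.09 ± 0.18. Both probes were dimmest on Day 6, when the array as a whole was also dimmest. After normalisation the lowest SLR was on Day 6 for miR-322 and on Day 4 for the miR-424 probe. Neither showed an SLR beyond 0.6.

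**Figure D1:**
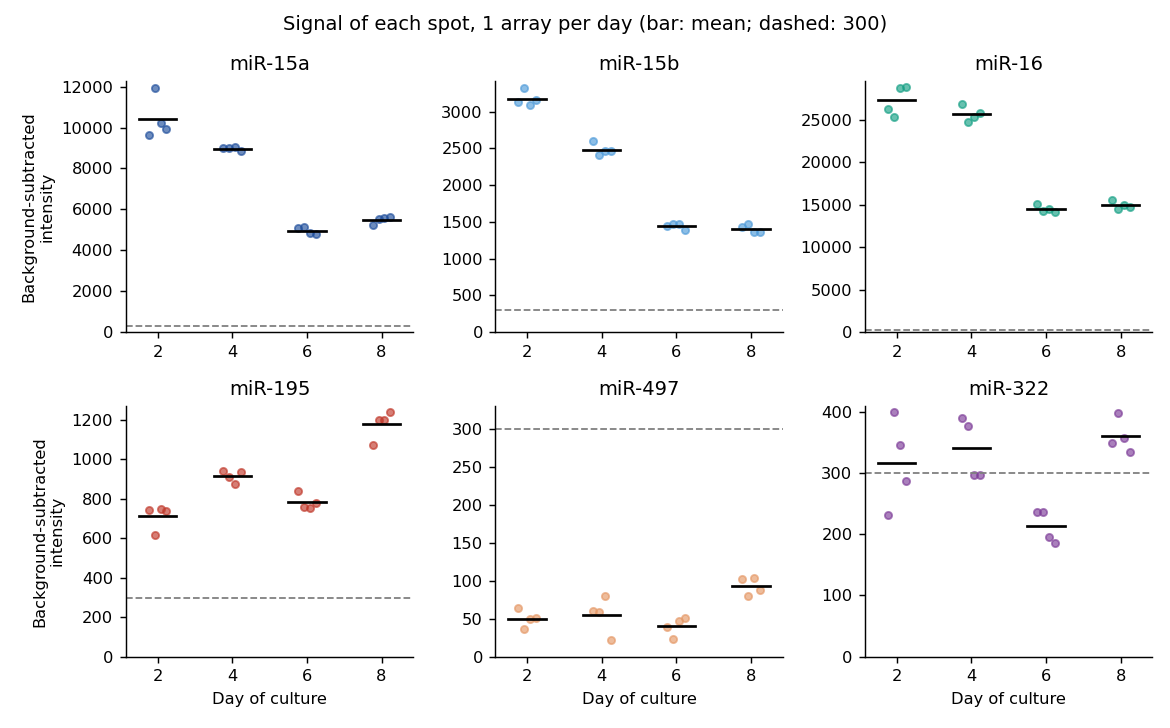
Background-subtracted intensity (Hy3 channel) of every spot of the 6 member probes (points, 4 per array) against the day of culture, before normalisation, with the mean as a bar and the detection threshold of 300 as a dashed line. The Day 2 spots lie highest for miR-15a and miR-15b, Day 8 lies highest for miR-195, and the daily means of miR-497 stay at 93.3 or below.

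Against the threshold of 0.6 that the study's methods set for an SLR, 0 of the 5 detected members were lower on Day 4, where 1.91% of all 419 detected miRNAs were lower by over 0.6. On Day 6 this held for 1 member, miR-15b (background 4.53%), with miR-15a just short of the threshold. On Day 8 it held for 3 members, miR-15a, miR-15b and miR-16, where 11.2% of detected miRNAs were that low. None of the 5 was higher by over 0.6 on Day 8, as 10.7% of detected miRNAs were. Replicate spots did not overlap between Day 8 and Day 2 for 4 of the 5 members, all but miR-322, and for 66.1% of detected miRNAs. The 5 detected members had a median SLR of -0.18, -0.40 and -0.79 for Days 4, 6 and 8, against -0.01, -0.01 and -0.03 for all 419.

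**Figure D2:**
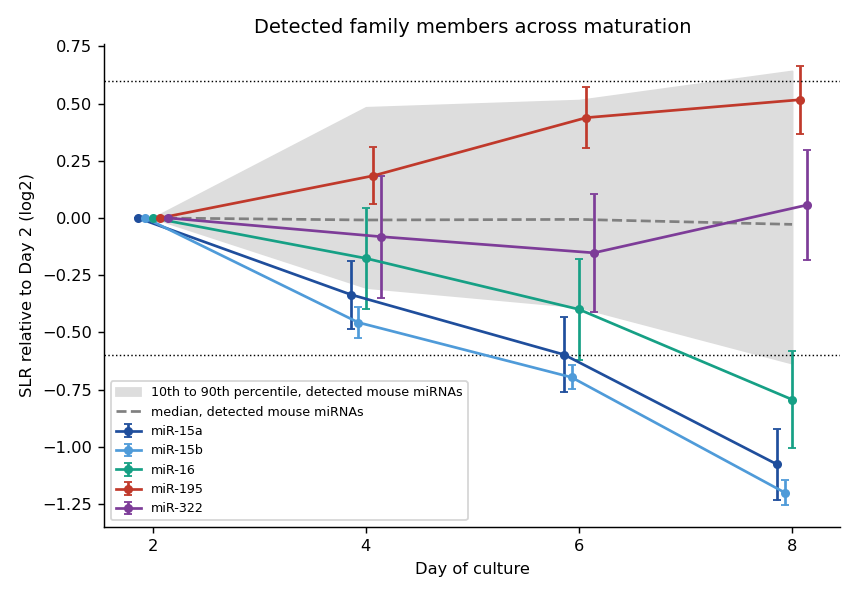
SLR relative to Day 2 (log2) of the 5 detected members on each day of culture, with bars for the SD over spots, the 10th to 90th percentile of all 419 detected miRNAs as a gray band, their median as a dashed line, and 0.6 in either direction as dotted lines. On Day 8, miR-15a (-1.08), miR-15b (-1.20) and miR-16 (-0.79) lie below the band, and miR-195 (0.52) and miR-322 (0.06) lie inside it.

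The change with harvest day was tested as a straight line for each of the 419 miRNAs with limma, two-sided, with Benjamini-Hochberg adjustment over all of them. With 4 arrays and 2 residual degrees of freedom, the residual variance of each miRNA was moderated towards that of all 419 (eBayes). The SEs and p-values therefore rest on that shared variance as well as on how closely 4 pools followed a line. They do not measure the spread between cultures. By this test 3 of the 5 members fell, where 9.55% of detected miRNAs did, and 1 rose, where 3.58% did. miR-15b had a slope of -0.19 per day on the log2 scale (SE 0.02, adjusted p = 0.0102) and ranked 12 among the steepest falls. miR-15a had a slope of -0.17 (SE 0.02, adjusted p = 0.0110) and ranked 15, and miR-16 one of -0.13 (SE 0.02, adjusted p = 0.0264) and ranked 25. miR-195 rose by 0.09 per day (SE 0.02, adjusted p = 0.0469), ranked 56 from the steepest rise, and stood closest to the threshold of 0.05. The slope of miR-322 was close to 0 (adjusted p = 0.898). Without the Day 8 array 0 of the 4 calls were left, and the call of miR-195 was lost whichever array was left out (adjusted p between 0.106 and 0.176). That of miR-16 was also lost without Day 4 (adjusted p = 0.0838) and without Day 6 (0.0972).

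**Figure D3:**
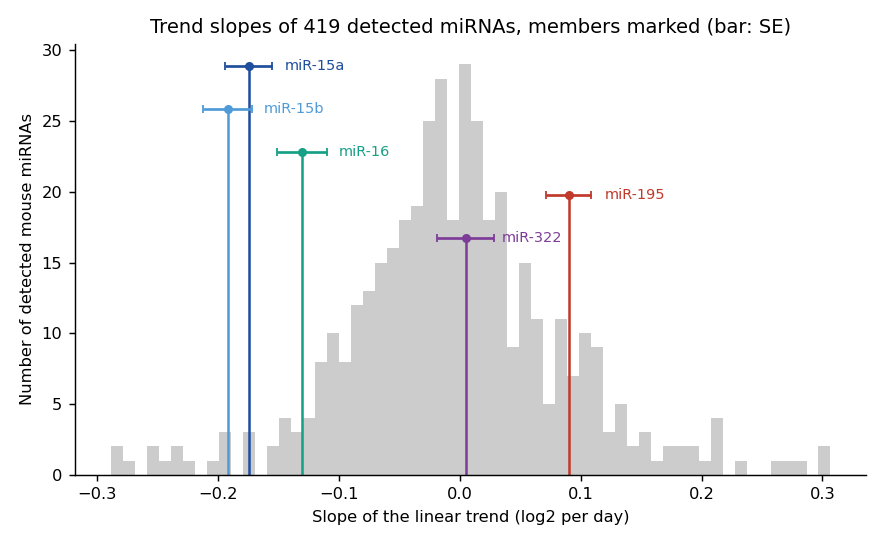
Number of detected mouse miRNAs (vertical axis) by the slope of the linear trend in log2 per day (horizontal axis), with the 5 detected members as coloured lines and the SE as bars. miR-15b (-0.19), miR-15a (-0.17) and miR-16 (-0.13) lie in the left flank, miR-322 at the centre and miR-195 (0.09) in the right flank.

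The gap in SLR between 2 members does not depend on a constant scaling of the arrays. For miR-195 minus miR-15b, Days 4, 6 and 8 gave gaps of 0.64 ± 0.14, 1.13 ± 0.14 and 1.72 ± 0.16, larger than the SD over spots on each day. For miR-16 minus miR-195, which differ in 2 bases, it was -1.31 ± 0.26 on Day 8. miR-322 lay between them on Day 8, with 0.46 ± 0.28 for miR-195 minus miR-322 and -0.85 ± 0.32 for miR-16 minus miR-322. With 1 array per day none of these gaps has a test across cultures.

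The scaling between arrays moved the members' SLRs. The study's methods scale the miRNA arrays by endogenous controls that they do not list, and the array's small nuclear, nucleolar and ribosomal RNA probes were taken here for this purpose. Scaling by 15 of these shifted the median over all 419 miRNAs to 0.18, 0.13 and 0.18 for Days 4, 6 and 8, and the members' SLRs on Day 8 became -0.78 for miR-15b, -0.51 for miR-15a, -0.45 for miR-16, 0.78 for miR-195 and 0.02 for miR-322. On Day 4 those of miR-15a (0.04) and miR-16 (0.17) were then above 0. Under this scaling 1 member, miR-15b, was lower by over 0.6 on Day 8 and fell by the trend test, and 1, miR-195, was higher by over 0.6 and rose. Taken relative to the median of all detected miRNAs, the Day 8 SLRs were -0.95 for miR-15b, -0.68 for miR-15a, -0.63 for miR-16, 0.60 for miR-195 and -0.15 for miR-322 under this and every other constant scaling.

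**Figure D4:**
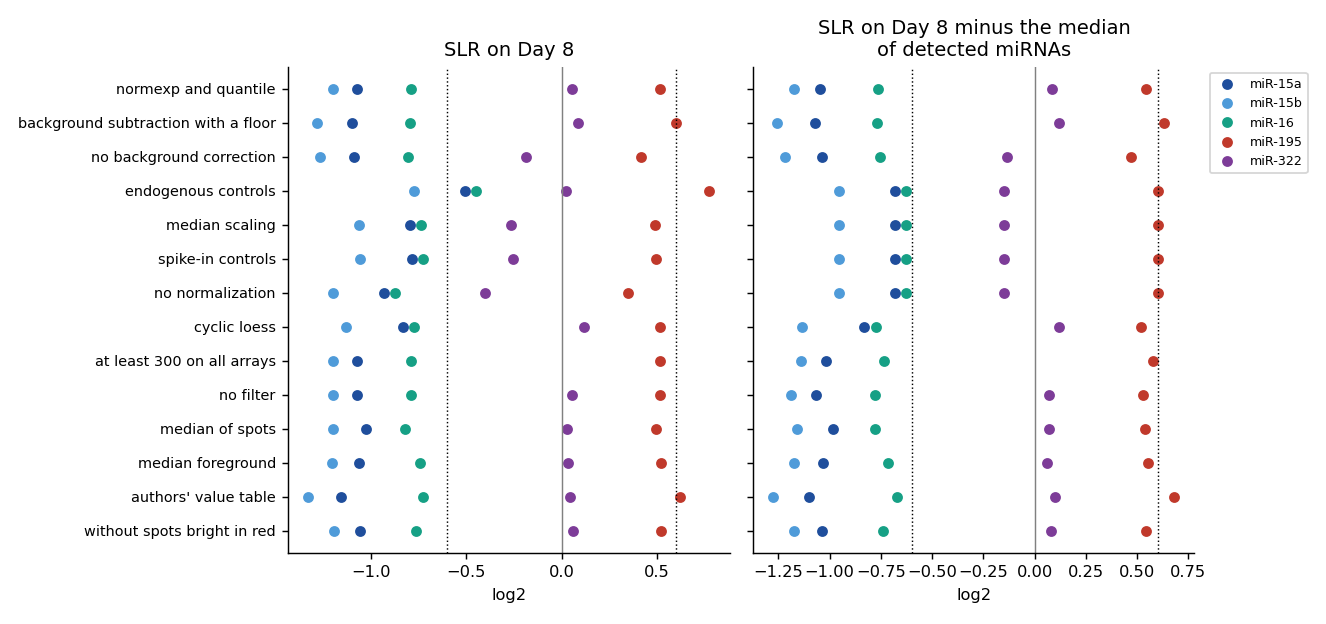
SLR on Day 8 (log2) of each detected member under 14 processing settings, one per row, as computed (left) and after subtracting the median SLR of the detected miRNAs (right), with 0.6 in either direction as dotted lines. miR-15b, miR-15a and miR-16 lie below 0 and miR-195 above 0 under each setting, and endogenous controls bring miR-15a (-0.51) and miR-16 (-0.45) inside the threshold.

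The passenger strands, which are cut from the same hairpins and mostly degraded, were not detected. Of 7 such probes on the array 0 reached 300, the brightest being miR-16-1*, with between 123 and 231, and miR-195*, with between 152 and 223. The sum over the 7 was 733, 694, 448 and 625 on Days 2, 4, 6 and 8.

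Of the neighbours of miR-322 on chromosome X, 5 of 8 probes were detected (40.7% of all mouse miRNA probes were) and 0 passed the trend test. Among all 419 detected miRNAs 9.55% fell and 3.58% rose, so 0 of so few does not set these neighbours apart. miR-503 gave intensities of 1691 ± 53, 1796 ± 63, 1430 ± 22 and 2359 ± 56 on Days 2, 4, 6 and 8 and an SLR of 0.37 ± 0.05 on Day 8 (adjusted p = 0.0947 for the trend). The SLRs on Day 8 were 0.23 for miR-351, -0.28 for miR-503* and -0.40 for miR-542-3p, so the detected products of this cluster lay on both sides of Day 2. miR-542-5p reached 300 on Day 8 alone, at 494 ± 55 against 235 ± 12 on Day 2. Its SLR on Day 8 was 0.65 ± 0.14, and since Day 2 was below 300 it is given as at least 1.31-fold higher, the Day 8 level over the lowest Day 2 level of a probe with all spots at 300 or more.

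miRNAs with a seed close to that of the family are shown next, since they bear the same letters in another register or with 1 change. The capitals mark bases 2 to 8.
miR-503: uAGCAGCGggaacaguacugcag
miR-103: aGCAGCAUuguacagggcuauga
miR-107: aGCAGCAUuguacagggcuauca

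The seed of miR-503 (chrX:53054027-53054049, minus strand) had 1 mismatch with that of the family. In miR-103 (chr11:35782447-35782469 and chr2:131288103-131288125, plus strand) and miR-107 (chr19:34820700-34820722, minus strand) the letters AGCAGCA began at base 1. Of the 4 miRNAs listed for a related seed, these 3 and miR-1907, all were detected and 0 passed the trend test. With 9.55% of all detected miRNAs falling and 3.58% rising, 0 of 4 does not set them apart either. No sequence of miR-1907 was read here, so its seed was not compared. Its intensity was 408 ± 21 on Day 8, against 258 ± 48 on Day 2, with an SLR of 0.37 ± 0.19. It was under 300 on Days 2 and 6, so Day 8 is given as at least 1.13-fold higher than Day 2. miR-103 had intensities of 7502 ± 1586, 8020 ± 1575, 5186 ± 879 and 6184 ± 946 and an SLR of -0.38 ± 0.40 on Day 8, inside its spot error. miR-107, 1 mismatch from miR-103, had 1734 ± 83, 2027 ± 112, 1402 ± 23 and 1926 ± 19 and an SLR of 0.09 ± 0.07.

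**Figure D5:**
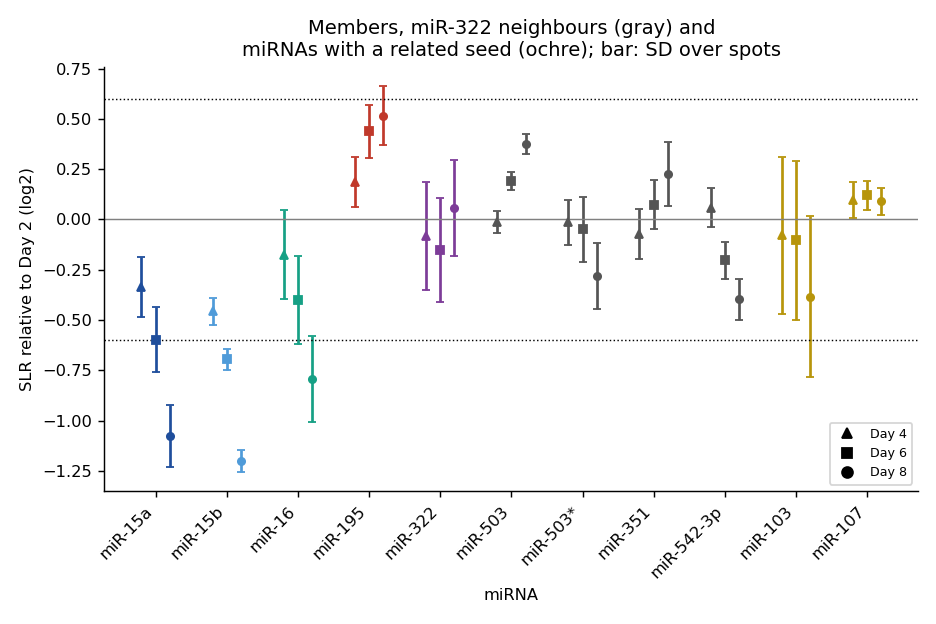
SLR relative to Day 2 (log2) on Day 4 (triangles), Day 6 (squares) and Day 8 (circles) for the 5 detected members, the 4 detected neighbours of miR-322 with at least 300 on all arrays (gray) and 2 miRNAs with a related seed (ochre), with bars for the SD over spots. miR-15a, miR-15b and miR-16 pass -0.6 on Day 8, and none of the 6 relatives drawn goes beyond 0.6 in either direction, whereas miR-542-5p (0.65 on Day 8), under 300 on the other arrays, is not drawn.

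The miRNAs whose SLRs on Days 4, 6 and 8 were nearest to a member's were taken from 396 other detected, unsaturated probes by Euclidean distance over the 3 SLRs. For miR-15b these were miR-489 (distance 0.08), miR-106b (0.09) and miR-301b (0.16). For miR-15a they were miR-99a (0.11), miR-106b (0.14) and miR-20a* (0.16), and for miR-16 miR-3084* (0.07), miR-125b-1-3p (0.09) and miR-677 (0.14). miR-106b, of the miR-17 seed family, was thus near both miR-15a and miR-15b. Nearest to miR-195 were miR-598 (0.09), miR-770-3p (0.10) and miR-434-5p (0.11), and nearest to miR-322 miR-194 (0.08), miR-294* (0.08) and miR-1224* (0.09). These likenesses rest on 3 differences from 1 Day 2 array. Among the neighbours named, miR-489, miR-20a*, miR-598 and miR-194 were under 300 on at least 1 array. These passed the detection filter only through their brighter days, so their likeness to a member is not read as a result.

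Set beside 2 other families, the family of miR-15, miR-16 and miR-195 was the one with calls in both directions. Its only upward call, that of miR-195, was kept by 7 of 13 other processing settings and lost whichever array was left out. Among all 419 detected miRNAs, 9.55% were called as falling and 3.58% as rising. All 6 detected members of the miR-17 family, which promotes the cell cycle, fell (median SLR -0.50, -1.05 and -1.41 on Days 4, 6 and 8), and all 3 members of the miR-29 family, which rises in maturing brain, rose (0.88, 1.36 and 1.43). Of these, 5 of the 6 and 2 of the 3 had at least 300 on all arrays. miR-20b reached 300 on 2 arrays and miR-29c on 3, so both passed the filter only through their brighter days and add no support to these counts. The difference between families was not tested.

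On the series as a whole, the 4 arrays detected between 339 and 401 mouse miRNAs with a mean intensity of mouse probes between 1275 and 1653, Day 6 being lowest. All 6 miRNAs listed for neurons were detected, 3 of them saturated. Detected members of the lists for other cells were 2 of 7 for astrocytes and mesenchymal cells, 1 of 6 for microglia and leukocytes, 1 of 5 for endothelial and red blood cells, 2 of 2 for oligodendrocytes and 1 of 4 for embryonic stem cells. From these lists, miR-223 and miR-143 stayed below 30 on every array, whereas the detected members were brighter. In the astrocyte and mesenchymal list, miR-21 gave 251 to 432 and miR-214 gave 401 to 738 over the arrays. The oligodendrocyte miRNAs miR-219-5p and miR-338-3p gave 264 to 460 and 801 to 1515. The embryonic stem cell miRNA miR-302a gave 1805 to 3331, whereas miR-302b, miR-302d and miR-367 of its list reached at most 121, 36.4 and -0.04. Which cells these signals came from was not tested. The red blood cell miRNA miR-451 and the leukocyte miRNA miR-142-3p reached 300 on 2 of the 4 arrays each. They passed the detection filter through those arrays alone, so their slopes are not read as a result. On Day 8 their intensities were 106 and 82.9, below the brightest negative control probe (117), so that a bound alone is given, at least 1.75-fold lower on Day 8 than on Day 2 for miR-451 and at least 1.41-fold lower for miR-142-3p. These bounds are likewise not read as a result. The other probes of both lists were under 300 on every array. Their Day 8 SLRs lay on both sides of Day 2, between -1.09 (miR-144) and 0.22 (miR-126-3p). Summed intensity was 442 to 1115 over the 5 endothelial and red blood cell probes and 485 to 791 over the 6 microglial and leukocyte probes. The part of these cells in the levels of miR-15a, miR-15b and miR-16, which blood cells also hold, was not tested.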

How the data were processed

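MicroRNA was measured on 4 single-dye LNA arrays of miRBase 16.0 content, which per the file headers were scanned on an InnoScan 700 with Mapix 4.5.0. The scanner files, as deposited, hold intensity (foreground mean and median, local background) at 532 nm for 12312 spots and the percent of saturated pixels, not normalised. The deposited value table holds the authors' intensity on a linear scale, equal to the mean over spots of median foreground minus background (largest difference 4.44e-06).

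In R 4.3.3 with limma 3.58.1, the foreground mean was normexp-corrected with an offset of 50, taken as log2, quantile-normalised over the spots of 2345 miRNA probes and averaged over spots. A mouse miRNA was called detected at a background-subtracted mean of 300 or more on at least 1 array, and 325 reached it on all 4. Trends were fitted with lmFit and eBayes. No test of one day against Day 2 exists. The number of arrays limits the precision.

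The text names all 6 members, their passenger strands, the miR-322 neighbours, related seeds, probes of another species, the 3 nearest profiles per member, and 2 families by medians. Members, lists and tests were chosen with earlier results of these data known. The alternatives changed background correction, normalisation, filter, spot summary, foreground, source and spots (red channel at 635 nm), and left out each array.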

Additional observations from a re-analysis of the deposited data

How the results depend on the processing

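The count of 3 members falling with day stayed at 3 under 10 of 13 processing settings and was 1 under endogenous controls, 0 under spike-in controls and 1 without normalisation. Leaving out 1 array at a time gave between 0 (without Day 8) and 3. The count of 1 member rising, miR-195, was 0 with background subtraction and a floor of 50, without background correction, under spike-in controls, without normalisation, without a filter and with the authors' value table, and 0 without any 1 of the 4 arrays. On Day 8, 3 members were lower than on Day 2 by over 0.6 under every setting but endogenous controls, with 1. No member was higher by over 0.6, except 1 (miR-195) with background subtraction and a floor, with endogenous controls and with the value table. The gap of miR-195 minus miR-15b on Day 8, 1.72, was 1.89 with background subtraction and a floor, 1.55 under endogenous controls, median scaling, spike-in controls or no normalisation, and 1.96 with the value table. The cause of these differences was not tested. Over all detected miRNAs the trend test called 40 falls and 15 rises. This split became 54 falls and 27 rises with median scaling, 22 and 53 with endogenous controls, 3 and 4 with spike-in controls, 21 and 4 if not normalised, 45 and 41 with cyclic loess. The slopes of miR-15a, miR-15b and miR-16 were negative and that of miR-195 positive under all 13 settings. Without a filter or with 300 required on all arrays the values are the same and the number of miRNAs tested, 1030 or 325, differs. miR-322, under 300 on Day 6, was not tested when 300 was required on all arrays. No paired analysis was possible because there was 1 array per day. Signal close to background limits miR-322 and miR-497.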
